A study of Mus musculus with 8 samples.

Results

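The genes described here are the nuclear genes of the subunits of the mitochondrial respiratory chain and ATP synthase, in hair cells of wild-type and Ndp knockout mice. Members were the protein-coding genes of the deposited table whose symbols start as those of subunits do (Nduf with a letter a, b, c, s or v and a number, Ndufab1, Sdha to Sdhd, Uqcr, Cyc1, Cox4 to Cox8 and Atp5). That rule took 85 of 25343 genes, of which 38 belong by name to complex I, 4 to complex II, 9 to complex III, 16 to complex IV and 18 to complex V. It uses names only and no measured value. Of the 85, 82 reached 10 normalized counts in at least 4 libraries and were tested, and Cox8b, Cox8c and the second of the 2 genes named Atp5o (ENSMUSG00000116933) did not. Another 4 genes carry such names but are annotated as pseudogenes or noncoding RNA and are not members. Ndufa4 is counted with complex I by its name, although its protein is now placed in complex IV.

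The respiratory chain sits in the inner mitochondrial membrane. Complex I takes electrons from NADH and complex II takes them from succinate. Complex III passes them to cytochrome c, complex IV passes them on to oxygen, and the proton gradient that the chain builds drives ATP synthesis by complex V. A small set of subunits is encoded by mitochondrial DNA and all others by nuclear genes, and complex II is encoded by nuclear genes alone. Hair cells, the mechanosensory receptors of the inner ear, are rich in mitochondria and spend ATP on ion transport and synaptic release.

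RNA was measured in 8 libraries of cochlear hair cells, 4 of wild-type mice and 4 of mice with a knockout of Ndp, the X-linked gene of the secreted protein norrin. All mice were of postnatal days 4 to 6, on a background that mixes C57BL/6 with 129, and the cells of both genotypes were sorted by an Atoh1-GFP reporter, which marks hair cells. Each tube pooled 12 to 20 sensory epithelia. The labels give neither the sex of the pups nor the part of Ndp that the knockout lacks, and nothing in them ties a pool to a litter. The p-values below therefore rest on library-to-library spread alone, part of which may be technical. Whole reads recovered from the normalized counts numbered 35077950 to 48329827 per library.

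As a check of the labels, Ndp had 174, 90.4, 114 and 206 normalized counts in the wild-type libraries 1 to 4 and 10.5, 22.6, 66.8 and 45.1 in the knockout libraries 1 to 4, so the genotypes did not overlap. Its log2 difference (knockout minus wild type) was -2.20 ± 0.56 (SE) with a limma adjusted p of 0.895, so the main test did not call the knocked-out gene. The hair cell markers were present: all 10 were measured, and they summed 365924 to 429448 normalized counts in wild type and 382827 to 443888 in the knockout. Supporting cell markers summed 260980.0 to 481642 in wild type and 307680.0 to 432480.0 in the knockout, with all 10 measured. These sums are not per length and do not compare the amounts of these cell types. The largest single parts were Tectb (wild-type mean 214099) for supporting cells and Calb1 (183686) for hair cells. In these bulk libraries, fewer cells of a type and less RNA per cell cannot be told apart. The wild-type libraries stand apart from each other in the genes described here. Wild-type libraries 2 and 3 were low and wild-type library 4 was high in most members, while the 4 knockout libraries lay close together, and each result below is given with that spread.

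Promoter sequence of the members is given as a description. The members moved together between libraries, as described below, and the part of promoters in that movement was not tested. Nuclear respiratory factor 1, encoded by Nrf1, GA-binding protein of the ETS family, encoded by Gabpa and its partners, and YY1 are known activators of nuclear genes for mitochondrial proteins. RefSeq promoter windows on the build GRCm38.p6, from 250 bases before to 50 after each start site, were found for 66 of the 84 member symbols, in 71 windows. Among the symbols without a window were Cyc1, Ndufs1, Sdhc, Atp5a1, Cox4i1 and Uqcrc2. The site of nuclear respiratory factor 1 (GCGCA, any base, then GCGC), searched on both strands as were all others, was in 18 of 71 member windows (25.4%) and in 4.6% of all 32851 windows. It was in 8 of 35 windows of complex I genes, 2 of 3 of complex II, 1 of 5 of complex III, 1 of 12 of complex IV and 6 of 16 of complex V. The YY1 core AANATGGC was in 22.5% of member windows and 6.05% of all windows, with 12 of its 16 member windows in complex I, which holds 35 of the 71. In Atp5b, Atp5j2, Cox7b, Ndufa3, Ndufa9, Ndufb8, Ndufc1, Ndufs4, Ndufs6 and Ndufs7 that match began 17 to 38 bases after the start site. In the other genes with the core it lay before. The ETS site CCGGAAGT was in 7.04% and 3.89%. Member windows were richer in CpG, with a median of 19 CpG against 7 and 57.3% against 52.7% G and C. Among windows with at least 19 CpG, the share with the nuclear respiratory factor 1 site was 42.1% for members and 13.2% for all. In the same windows the YY1 core was in 13.2% against 8.26%, and the ETS site, at 7.89% against 8.55%, was no more frequent in members. Over all windows, shares with a GC box (GGGCGG, 38% and 35.7%), CCAAT (40.8% and 37.4%) and TATAAA (9.86% and 13.6%) lay closer together. Among windows with at least 19 CpG, the GC box was less frequent in members (52.6% against 80.2%), CCAAT was in 34.2% and 33.3%, and TATAAA in 7.89% and 3.77%. Each motif was counted on its own, matches that overlap another motif included, and a match is a description of the letters and not evidence of binding.

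One stretch per complex shows where these letters lie before the start site, on the gene's own strand, with the motif in capitals. Ndufb4 shows a repeated nuclear respiratory factor 1 site, Sdha shows 3 copies of it, Uqcr11 shows the ETS site, and Cox6a1 and Atp5k show the first factor's site again in complexes IV and V.
Ndufb4, complex I, chr16:37654369-37654458, minus strand: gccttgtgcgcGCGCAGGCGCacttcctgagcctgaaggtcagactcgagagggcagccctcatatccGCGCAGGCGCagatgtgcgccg
Sdha, complex II, chr13:74350241-74350350, minus strand: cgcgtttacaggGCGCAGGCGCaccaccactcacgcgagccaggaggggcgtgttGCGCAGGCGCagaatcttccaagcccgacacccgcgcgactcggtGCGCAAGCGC
Uqcr11, complex III, chr10:80406852-80406911, minus strand: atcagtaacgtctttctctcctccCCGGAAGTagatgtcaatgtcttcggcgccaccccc
Cox6a1, complex IV, chr5:115349049-115349138, minus strand: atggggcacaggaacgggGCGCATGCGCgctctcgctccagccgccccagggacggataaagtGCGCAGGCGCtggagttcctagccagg
Atp5k, complex V, chr5:108434400-108434479, minus strand: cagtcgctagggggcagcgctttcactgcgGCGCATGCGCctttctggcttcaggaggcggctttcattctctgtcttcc

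In level per length, the members spanned several orders of magnitude. Values here are normalized counts per kilobase of transcript, as the mean ± SD of the 4 wild-type libraries. Atp5b, the catalytic beta subunit of ATP synthase, stood first with 52102 ± 5031, followed by Uqcr11, a small subunit of complex III, with 43872 ± 26965, Cox6a1, the widely expressed form of subunit 6A of complex IV, with 42243 ± 24038, and Cox4i1, the common form of subunit 4, with 36302 ± 15594. Their spreads overlap, so the order of these 4 is not resolved. In the knockout the same 4 had 57739 ± 2224, 44432 ± 3103, 43020.2 ± 2220.4 and 37033 ± 2025. The highest complex I members were Ndufa4 (35141 ± 19142) and Ndufb9 (31376 ± 15276). The catalytic core of complex I was lower, with 6971 ± 1428 for the flavoprotein Ndufv1 and 3839.9 ± 712 for the iron-sulfur protein Ndufs1. Complex II, which also works in the citric acid cycle, ranged from 12190.0 ± 3622 for its iron-sulfur subunit Sdhb to 1964 ± 268 for the membrane anchor Sdhc, with 7885 ± 546 for the flavoprotein Sdha. Complex III had 14476 ± 2443 for the core protein Uqcrc1, 9366 ± 734 for cytochrome c1 (Cyc1) and 7161 ± 1453 for the Rieske iron-sulfur protein Uqcrfs1. At the low end stood genes known as tissue-restricted forms of complex IV subunits, with 162 ± 123 for Cox6b2, 28.5 ± 19.9 for Cox8b and 3.92 ± 3.60 for Cox8c, together with Ndufa4l2 (6.18 ± 3.74) and the second Atp5o gene (9.89 ± 5.40).

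**Figure D1:**
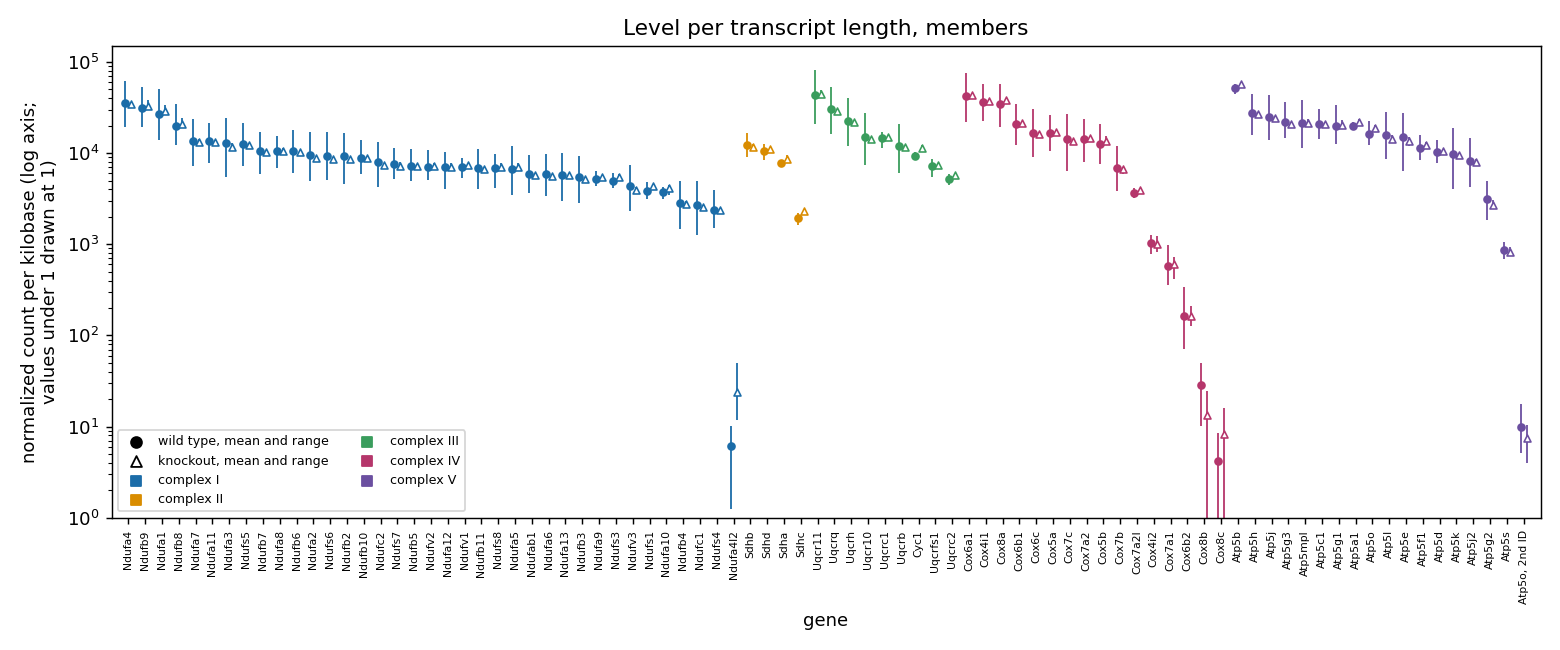
Normalized count per kilobase of transcript (log axis) for 84 of the 85 members, by complex and in falling order, with filled circles for the wild-type mean, open triangles for the knockout mean and lines for the range over 4 libraries. Cox8b, Cox8c, Ndufa4l2 and the second Atp5o gene lie far under most other members in both genotypes.

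For subunits 4, 6B, 7A and 8 of complex IV, the same form led in every library of both genotypes. Shares are of the level per transcript length summed over the forms of a subunit, as the mean ± SD of 4 libraries. Cox4i2, the form of subunit 4 known from lung and low oxygen, held 2.95 ± 0.626% over the wild-type libraries and 2.64 ± 0.566% over the knockout libraries. Cox7a1, known as the heart and muscle form of subunit 7A, held 3.84 ± 0.373% over the wild-type libraries and 4.04 ± 0.862% over the knockout libraries, against its partner Cox7a2. Cox6b2, known from testis, held 0.708 ± 0.183% over the wild-type libraries and 0.756 ± 0.156% over the knockout libraries, against Cox6b1. Cox8a held 99.8 to 100% of subunit 8 in the 8 libraries. The c subunit of ATP synthase, whose 3 genes encode the same mature protein, drew mostly on Atp5g1 (44.4 ± 1.88% over the wild-type libraries and 46.2 ± 2.21% over the knockout libraries) and Atp5g3 (48.7 ± 2.56% over the wild-type libraries and 47.7 ± 2.34% over the knockout libraries). Which of these 2 led differed between libraries: Atp5g1 in wild-type library 1 and knockout libraries 1 and 3, and Atp5g3 in the others, while per coding length Atp5g3 led in all 8. Atp5g2 held 7.95, 6.35, 6.67 and 6.65% in wild-type libraries 1 to 4 and 5.84, 5.94, 6.45 and 6.03% in knockout libraries 1 to 4, and these ranges overlap. The muscle markers bear on Cox7a1: they summed 179 to 499.9 normalized counts in wild type and 242 to 346 in the knockout, with 6 of 10 in the table, and their part in the Cox7a1 level was not tested.

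The main comparison asks whether these genes differ between knockout and wild-type hair cells, and no member was called. Limma on log2(normalized count + 1) gave 0 of 82 members an adjusted p under 0.05, where 0.00549% of all 18203 genes tested passed. Ndp itself was not called (limma adjusted p = 0.895), so a lack of calls does not show a lack of difference. At an unadjusted p under 0.05, 2 members were higher in the knockout, Cyc1 and Ndufa4l2, and 0 were lower, where 3.1% of all genes were higher and 2.47% lower. With edgeR (quasi-likelihood test, recovered reads) 0 members were called, as were 0% of genes, and with DESeq2 0 members against 0.136% of genes. At an unadjusted p under 0.05, edgeR had 2 members higher and 0 lower (2.21% and 2.33% of genes), and DESeq2 had 3 higher and 0 lower (3.07% and 3.01% of genes). In the authors' deposited table the lowest adjusted p of a member was 0.55, that of Cyc1. Counted by ranges, 4 members lay higher in every knockout library than in every wild-type library (Cyc1, Sdhc and Ndufa4l2 among them) and 0 lay lower, where 1.46% and 1.58% of all genes did. Ndufa4l2 reached the minimum for testing only through its knockout libraries, so it had to be higher there.

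The fitted log2 differences of the members were small and their common sign depends on the scale and on single libraries. By limma 76 of 82 were above 0 (52.5% of all genes), with a median of 0.11 against 0.016 over all genes. By edgeR, which compares means of reads and not of logs, 39 of 82 were above 0 (47.5% of all genes) with a median of -0.0068. The limma median was 0.37 without wild-type library 4, -0.093 without wild-type library 2 and -0.016 without wild-type library 3. Without wild-type library 4, 24 members were higher at an unadjusted p under 0.05 (3% of all genes) and 0 were called. Without wild-type library 2, 4 members were (5.89% of all genes), a share of the 82 no larger than that of all genes. There was 1 such member without wild-type library 1 (2.78% of all genes), wild-type library 3 (4.27%) or knockout library 4 (2.46%), and 0 without knockout library 1 (1.99%), 2 (3.22%) or 3 (1.83%). Within the 1 pair of libraries whose titles share a date, wild type 2 and knockout 2, the median difference was 0.72, with no test. 

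Several lists of cell type markers held genes at an unadjusted limma p under 0.05 between the genotypes, with 0 markers called. Counts above or below 0 are of the knockout minus wild-type log2 difference. Macrophage markers were above 0 in 11 of 12 (4 at that p), and they summed 2136 to 5172 normalized counts in wild type and 3905 to 6150.4 in the knockout. Outer hair cell markers were above 0 in 3 of 3 (2 at that p), and they summed 14168 to 37681 normalized counts in wild type and 27719 to 67003 in the knockout. Mesenchyme markers were above 0 in 7 of 10 (3 at that p), and they summed 16923 to 23731 normalized counts in wild type and 19463 to 32832 in the knockout. The highest sum was that of knockout library 4, and knockout libraries 1 to 3 had 19514, 20447 and 19463, inside the wild-type range. Without knockout library 4 the median difference of mesenchyme markers was 0.23, against 0.64 with all libraries. Supporting cell markers, whose sums are given above, were below 0 in 7 of 10 (3 at that p). Hair cell markers were above 0 in 8 of 10 and endothelial markers in 6 of 7, each with 1 at that p, and markers of neurons and glia in 5 of 8, with 1 higher and 1 lower at that p. Markers of dividing cells were above 0 in 6 of 6 (0 at that p), and they summed 1537 to 2927 normalized counts in wild type and 1963 to 5999 in the knockout. The highest sum was that of knockout library 1, and knockout libraries 2 to 4 had 2018, 2269 and 1963, inside the wild-type range. Without knockout library 1 the median difference of these markers was 0.16, against 0.76 with all libraries. Of 3 tested muscle markers 2 were above 0 and 1 was lower at that p, and the 1 tested red blood cell marker was below 0 (not at that p). The part of these cells in the differences of the members was not tested.

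**Figure D2:**
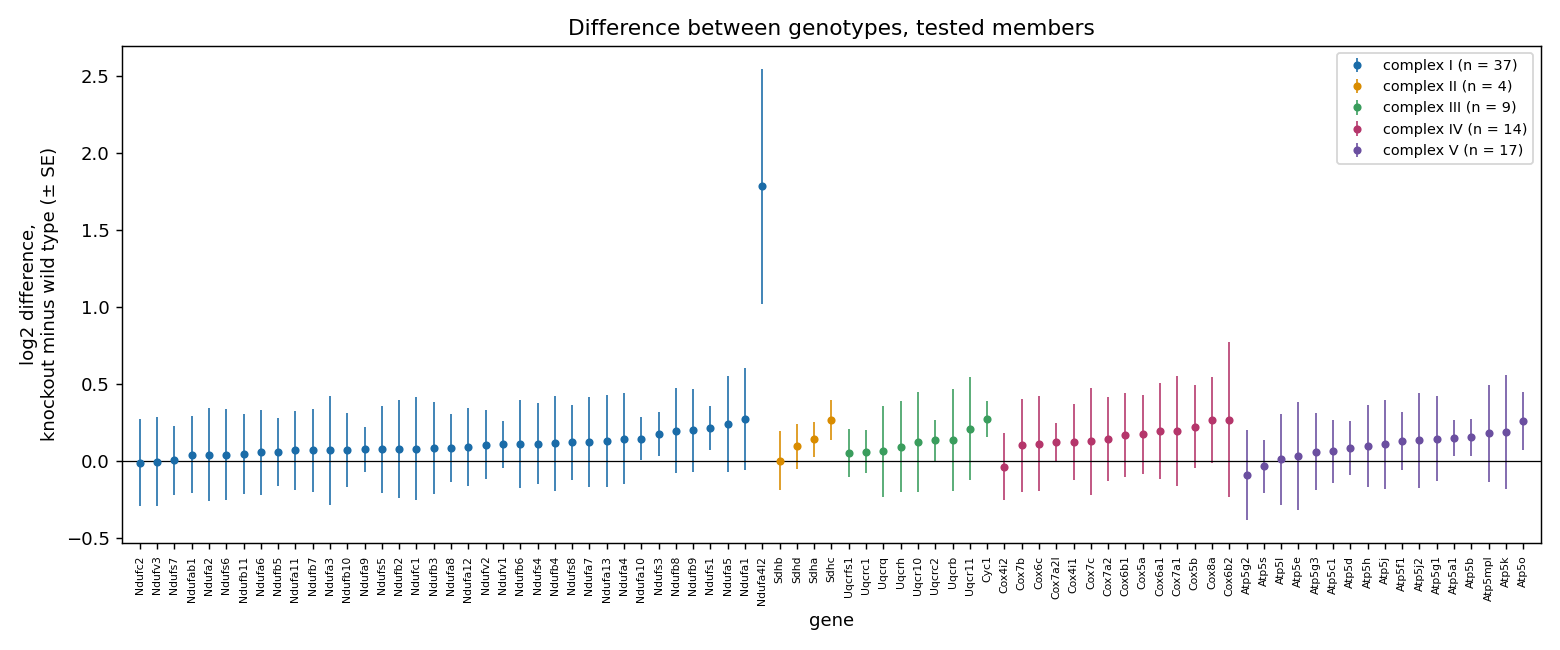
Log2 difference (knockout minus wild type, limma on log2(normalized count + 1)) with its SE for 81 of the 82 tested members, by complex and in rising order. Most points lie close to 0 with errors that reach it, Ndufa4l2 lies far above at 1.78, and the common position above 0 is absent in edgeR, where 39 of 82 are above 0.

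In complex I, 36 of 38 members had a limma difference above 0 with a median of 0.086, while the edgeR median was -0.024 and the limma median without wild-type library 2 was -0.12. Ndufs1, the largest subunit of the complex, had 9993, 12489, 9072 and 8227 normalized counts in wild-type libraries 1 to 4 and 11719, 10851, 11397 and 11578 in knockout libraries 1 to 4. The knockout libraries lay inside the wild-type range, with wild-type library 2 the highest of all, and the difference was 0.21 ± 0.14 (SE) (limma adjusted p = 0.934). Ndufv1, the subunit that binds NADH, had 11996, 11045, 8772 and 14502 and 12312, 12146, 13085 and 11579, and its genotypes overlapped (0.11 ± 0.15 (SE), limma adjusted p = 0.98).

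Ndufa4l2, a paralogue of Ndufa4 known as a target of hypoxia-inducible factor, was near the limit of detection. It had 5.28, 7.30, 9.36 and 1.16 normalized counts in wild-type libraries 1 to 4, the last of which is 1 read, and 19.0, 46.1, 13.5 and 10.999 in knockout libraries 1 to 4. All knockout libraries were higher, and knockout library 2 was far above the other three. The log2 difference was 1.78 ± 0.77 (SE) with a limma p of 0.0407 and an adjusted p of 0.895. Ndufa4l2 passed the minimum for testing only through its knockout libraries, so that direction was fixed in advance and the p is no support for it. By its coordinates the gene overlaps Shmt2, which had a mean of 1693 normalized counts, on the opposite strand. The library kit does not mark strand, so reads from any bases that the pair shares cannot be assigned by strand. Whether their exons overlap was not examined. Ndufa4 itself had 21594, 11732, 14606 and 37813 in wild type and 21183, 20189, 21992 and 22037 in the knockout, with the knockout libraries between wild-type libraries 3 and 4 (0.14 ± 0.30 (SE), limma adjusted p = 0.989).

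Complex I also holds 2 of the 3 members on the X chromosome, where Ndp lies. Ndufa1, a small membrane subunit (37187588 to 37191163, mm10), had 11281, 5825, 7045 and 21141 in wild type and 11192, 10865, 14194 and 12025 in the knockout. The knockout libraries lay within the wild-type range, which ran from library 2 to library 4 (0.27 ± 0.33 (SE), limma adjusted p = 0.975). Ndufb11, an accessory subunit of the membrane arm (20615326 to 20617619), had 6523, 3645, 4771 and 10204 and 6140.0, 5812, 6152 and 5937, with the knockout again inside the wild-type range (0.043 ± 0.26 (SE), limma adjusted p = 0.997). Cox7b, a complex IV subunit (106015700 to 106022450), had 7143, 3797, 4538 and 12109 and 5953, 6921, 6859.6 and 6978 (0.10 ± 0.30 (SE), limma adjusted p = 0.995). For Ndufb11 and Cox7b the edgeR difference was below 0, at -0.072 and -0.054.

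Complex II varied least between the wild-type libraries, while its median SD of log2 values over the knockout libraries, 0.088, was the largest of any complex. Its median limma difference was 0.12 over 4 members, and it stayed above 0 by edgeR (0.10) and without any 1 library (0.058 to 0.18). Sdha, the flavoprotein that oxidizes succinate, had 24512, 23904, 21799 and 21257 normalized counts in wild type and 24809, 23264, 27415 and 25156 in the knockout. The genotypes overlapped, since knockout library 2 lay under wild-type libraries 1 and 2 (0.14 ± 0.11 (SE), limma adjusted p = 0.942). Sdhc, a membrane anchor that helps hold the heme, had 6825, 5095, 6056 and 6933 and 7230.1, 7660.1, 7663 and 7172. All knockout libraries of Sdhc lay above all wild-type libraries, with wild-type libraries 1 and 4 close beneath them (0.26 ± 0.13 (SE), limma adjusted p = 0.903). Sdhb, the iron-sulfur subunit, had 15195, 10803, 10468 and 19218 and 12466, 14179.5, 14484 and 12867, with wild-type libraries 2 and 3 the lowest and wild-type library 4 the highest (-0.00088 ± 0.19 (SE), limma adjusted p = 0.999).

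In complex III the limma median was 0.12 with 9 of 9 members above 0, but it was 0.010 by edgeR and -0.086 without wild-type library 2. Cyc1 (ENSMUSG00000022551, chromosome 15, 76343523 to 76346260, mm10) encodes cytochrome c1, the heme protein that hands electrons to cytochrome c. It had 15705, 14454, 13632 and 13156 normalized counts in wild-type libraries 1 to 4, or 14237 ± 1116 (SD, n = 4). Knockout libraries 1 to 4 had 16479, 17449, 18682 and 16068, or 17169.5 ± 1163 (SD, n = 4). The lowest knockout library lay just above wild-type library 1, so the genotypes did not overlap. The log2 difference of Cyc1 was 0.27 ± 0.11 (SE), with an unadjusted limma p of 0.0384 and an adjusted p of 0.895 over all genes. It was 0.23 to 0.32 when any 1 library was left out and 0.26 by edgeR (adjusted p = 0.996). Within the pair of shared date it was 0.27.

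Other members of complex III overlapped between genotypes. Uqcrc1, a core protein on the matrix side, had 25797, 22839, 18853 and 28229 in wild type and 24681, 25267, 25722 and 22927 in the knockout (0.057 ± 0.14 (SE), limma adjusted p = 0.991). Its partner core protein Uqcrc2 had 11158, 11259.8, 8406 and 8889.7 and 10469, 11589, 10629 and 10539, with knockout library 2 the highest of all 8 (0.13 ± 0.13 (SE), limma adjusted p = 0.959). The Rieske protein gene Uqcrfs1 had 10924, 8940.3, 7388 and 11787 and 9947, 10544, 10289.9 and 9116 (0.052 ± 0.16 (SE), limma adjusted p = 0.994). Wild-type library 3 was the lowest of the 8 for all 3 of these genes. Uqcr11 behaved otherwise, with 19593, 9238, 12926 and 36335 in wild type and 18629, 19248, 21778 and 19434 in the knockout. Wild-type library 4 held 3.93 times the level of wild-type library 2, and all knockout libraries lay between wild-type libraries 3 and 4 (0.21 ± 0.34 (SE), limma adjusted p = 0.987).

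Complex IV had the highest median by limma, 0.15 with 13 of 14 tested members above 0. That median was 0.020 by edgeR and -0.060 without wild-type library 2, and in 14 of 14 members the knockout range lay inside the wild-type range. Cox4i1, the common form of the largest nuclear-encoded subunit, had 29004, 16817, 19727 and 42631 in wild type and 27644, 25936, 29576 and 27203 in the knockout (0.12 ± 0.25 (SE), limma adjusted p = 0.988). Cox5a, one of the first subunits assembled, had 11674, 6841, 7006 and 16861 and 11508, 10323, 11680.2 and 10944 (0.17 ± 0.26 (SE), limma adjusted p = 0.981). In both genes wild-type libraries 2 and 3 were the lowest of the 8 and wild-type library 4 the highest. The smallest unadjusted limma p of the complex were 0.358 for Cox7a2l, 0.366 for Cox8a (0.26 ± 0.28 (SE)) and 0.432 for Cox5b (0.22 ± 0.27 (SE)). Cox7a2l, which encodes a factor that joins complexes III and IV in supercomplexes, had 4013, 3823, 3466 and 4455 in wild type and 4055, 4228, 4434 and 4332 in the knockout. It varied little between libraries, and its genotypes overlapped (0.12 ± 0.12 (SE), limma adjusted p = 0.961). Cox6a1, Cox6b1 and Cox7a2 had differences of 0.19 ± 0.31 (SE), 0.17 ± 0.27 (SE) and 0.14 ± 0.28 (SE).

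The less abundant forms of complex IV subunits did not differ beyond their spread. Cox4i2 had 892, 631, 563 and 929 in wild type and 601, 887, 655 and 757 in the knockout (-0.039 ± 0.22 (SE), limma adjusted p = 0.997). Cox7a1 had 223, 141, 147 and 388 and 164, 251, 286 and 258 (0.19 ± 0.36 (SE), limma adjusted p = 0.988). Cox6b2 had 73.9, 32.9, 38.2 and 157 and 59.0, 77.5, 98.3 and 69.3 (0.27 ± 0.50 (SE), limma adjusted p = 0.988). In each of these 3 genes wild-type library 4 was the highest of the 8. Cox8b had 14.8, 3.65, 17.9 and 4.65 and 6.33, 3.92, 0 and 8.80, and Cox8c had 2.11, 0, 3.90 and 1.16 and 7.38, 3.92, 0 and 3.30, and 3 reads were worth 2.34 to 3.49 normalized counts. Both were under the minimum for a test, and their ranges overlapped between genotypes.

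In complex V the limma median was 0.11 with 15 of 17 tested members above 0, against -0.025 by edgeR and -0.069 without wild-type library 2. Atp5b had 108677, 101189, 86165 and 103277 in wild type and 115859, 110270.0, 110942 and 105443 in the knockout. Only wild-type library 1 reached the knockout range (0.15 ± 0.12 (SE), limma adjusted p = 0.94). Atp5a1, the alpha subunit that shares the catalytic head with the beta subunit, had 49901, 53677, 45084 and 45462 and 52518, 53869, 57868 and 50653, and wild-type library 2 lay inside the knockout range (0.15 ± 0.12 (SE), limma adjusted p = 0.94). Atp5o, a subunit of the stalk that holds the head in place, had 14292, 10426, 10333 and 18747 and 14980.0, 15757, 17263 and 14484, with wild-type libraries 2 and 3 the lowest and wild-type library 4 the highest (0.26 ± 0.19 (SE), limma adjusted p = 0.94). Atp5g1, Atp5g2 and Atp5g3, the genes of the membrane rotor, had differences of 0.14 ± 0.28 (SE), -0.10 ± 0.29 (SE) and 0.059 ± 0.25 (SE). Atp5s, a coupling factor gene, had -0.036 ± 0.17 (SE). None of these 4 genes kept its knockout libraries apart from its wild-type libraries.

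The members differed most between wild-type libraries. As medians over 82 members of the log2 deviation from the mean of the 8 libraries, wild-type libraries 1 to 4 stood at 0.11, -0.70, -0.41 and 0.78 and knockout libraries 1 to 4 at 0.033, 0.037, 0.11 and 0.048. Medians over all 18203 genes lay between 0.016 and 0.033. Members took 2.44, 1.69, 1.86 and 3.28% of the recovered reads in wild-type libraries 1 to 4 and 2.38, 2.36, 2.46 and 2.36% in knockout libraries 1 to 4. In wild-type library 2, complexes I, III, IV and V stood at -0.71, -0.78, -0.75 and -0.58 and complex II at -0.27. In wild-type library 4 they stood at 0.78, 0.91, 0.78 and 0.79, and complex II at 0.14. Wild-type library 4 was the highest of the wild-type libraries in 73 of 82 members, where 28.4% of all genes had it highest. Among the 9 others were Ndufa10, Ndufa4l2, Ndufs1, Sdha, Cyc1, Uqcrc2, Atp5a1 and Atp5b.

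**Figure D3:**
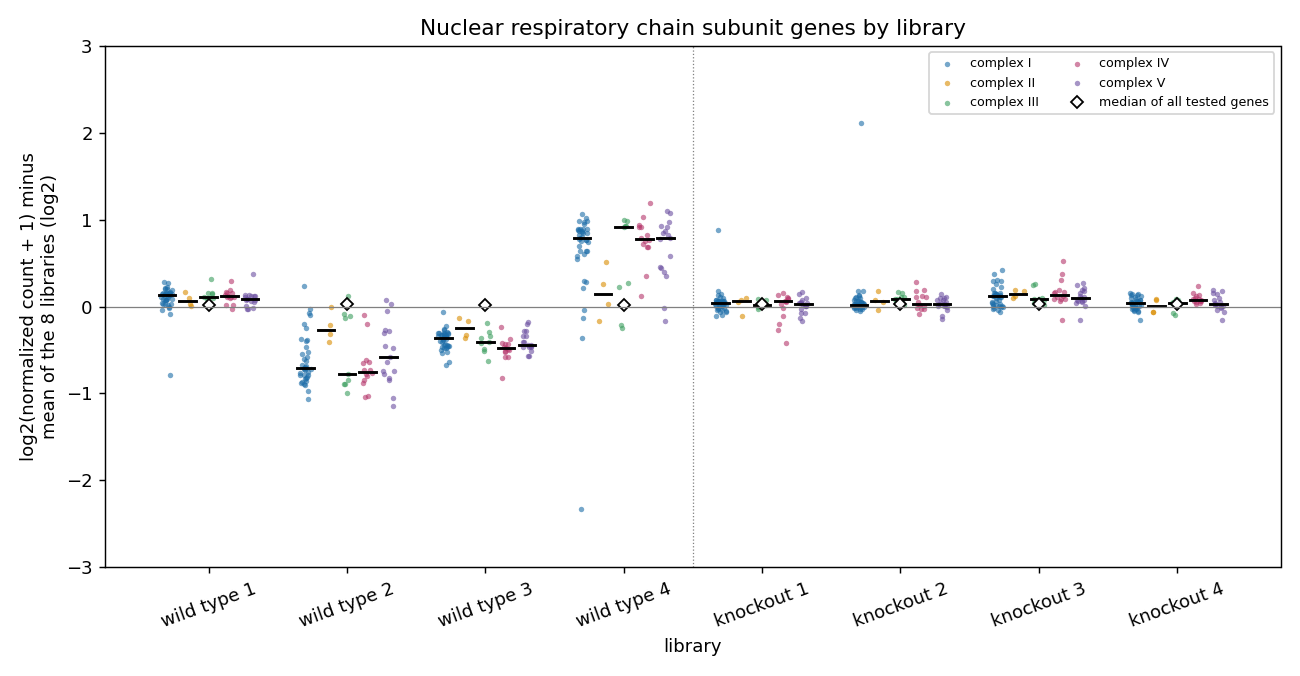
Deviation of log2(normalized count + 1) from the mean of the 8 libraries for each tested member (points, coloured by complex), with the median per complex (bars) and the median of all tested genes (diamonds), by library. Wild-type libraries 2 and 3 lie low and wild-type library 4 high for most members. Complex II moves least between the wild-type libraries, and the knockout libraries lie near 0, as do all diamonds.

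The SD of log2 values was larger over the 4 wild-type libraries than over the 4 knockout libraries in 82 of 82 members, where 70.5% of all genes tested and 82.4% of the 7398 genes with a mean of at least 1000 normalized counts had the larger SD in wild type. Its median was 0.668 in wild type and 0.0771 in the knockout for members, 0.443 and 0.279 for all genes, and 0.304 and 0.152 for the 7398. The knockout range lay inside the wild-type range in 73 of 82 members, where 38% of all genes did. Complex II had the smallest wild-type SD, with a median of 0.237, and complex III the largest, 0.743. Members share libraries, so these counts describe 8 libraries and no test of the spread was made. An example is Ndufb4, an accessory subunit of complex I, with 3013, 1439.5, 1909 and 4758 normalized counts in wild-type libraries 1 to 4 and 2707, 2634, 2607 and 2893 in knockout libraries 1 to 4. Cox6a1 had 24736, 12471, 16069 and 43207 and 23864, 23135, 25734 and 25524. Atp5k, the e subunit of ATP synthase, had 3493, 1498, 2485 and 7068 and 3408, 3386, 3549 and 3741. In all 3 the knockout libraries lay between wild-type libraries 3 and 4, close to wild-type library 1.

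**Figure D4:**
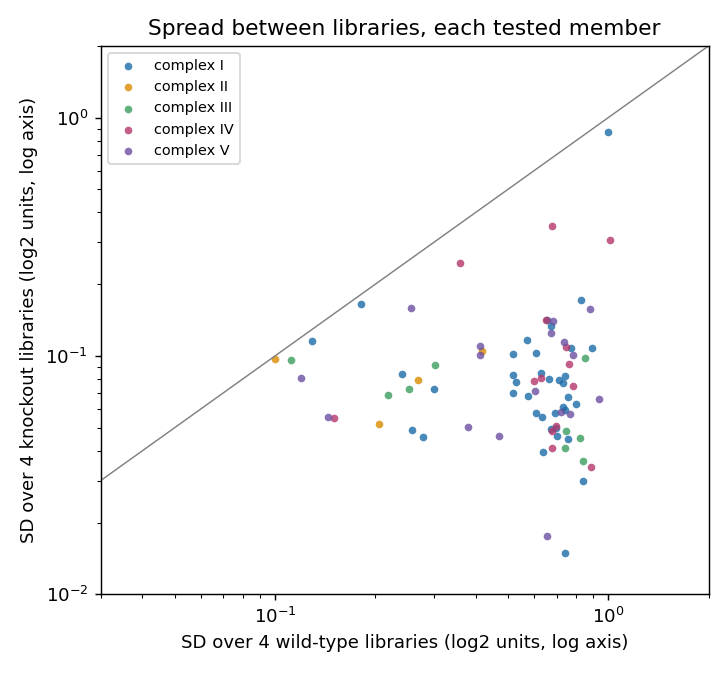
SD of log2 values over the 4 knockout libraries against that over the 4 wild-type libraries for each tested member (both axes log), with the line of equality. All 82 points lie under the line, and most wild-type SDs lie near the median of 0.668 and most knockout SDs near 0.0771.

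The distance between wild-type libraries followed transcript length. Over 82 members the log2 ratio of wild-type library 4 to library 2 had Spearman's rho of -0.74 with transcript length and -0.81 with coding length. Over 18195 genes with a length the first was -0.35. These correlations are across genes of the same libraries, which are not independent replicates, and are given as descriptions. Of 2 knockout ratios computed, that of library 4 to library 1 had a rho of -0.47 with transcript length over members, at a median log2 ratio of 0.0054, and that of library 3 to library 2 had -0.15, at 0.070. The median of the wild-type ratio was 1.47. Members of up to 500 bases (11 genes) had a median log2 ratio of 1.87 against 0.97 for all genes of that length. Members of 500 to 700 bases (24) had 1.62 against 0.94, those of 700 to 1000 bases (18) 1.32 against 0.78, and those of 1000 to 1500 bases (14) 0.84 against 0.40. For members of 2000 to 4000 bases (5) it was -0.17 against -0.19. In each class up to 2000 bases the median of the members was above that of all genes. The median transcript was 760.5 bases for members and 2577 for all genes, and complex II had the longest, with a median of 2065.5.

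**Figure D5:**
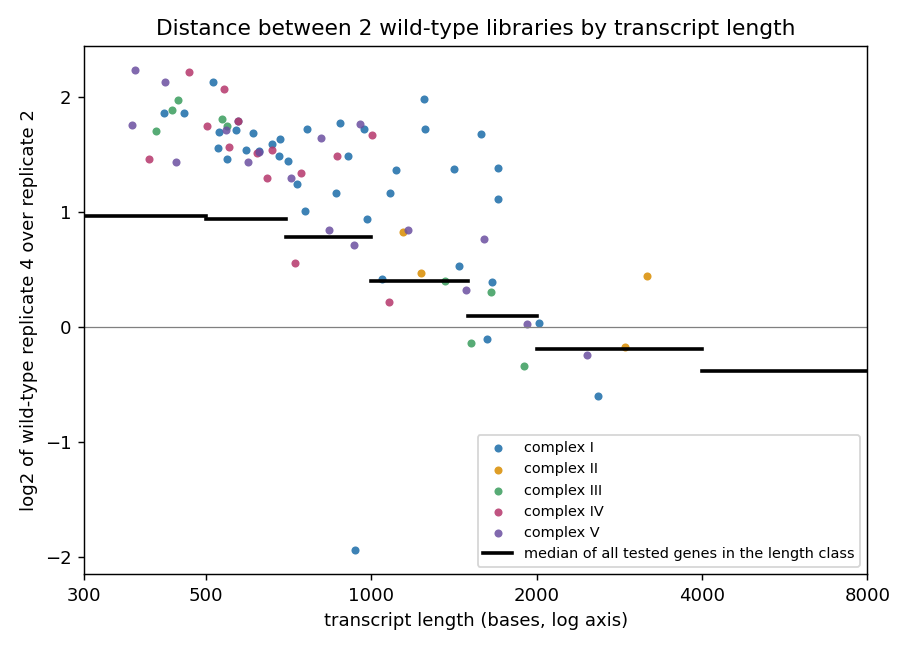
Log2 ratio of wild-type library 4 to wild-type library 2 against transcript length (log axis) for the 82 tested members, coloured by complex, with black bars for the median of all tested genes in each length class. Most short members lie above 1 and above the bars, long members near 0.

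When the trend of each library's values on length over all genes was removed, an alternative chosen after seeing the data, the library order of the members became smaller but kept its signs in wild-type libraries 2, 3 and 4. The medians were 0.019, -0.33, -0.28 and 0.30 in wild-type libraries 1 to 4 and 0.072, 0.012, 0.18 and 0.046 in knockout libraries 1 to 4. On that scale the median difference between genotypes was 0.15, 0 members were called by limma and 5 were higher at an unadjusted p under 0.05 (Cyc1, Ndufs3, Atp5o and Ndufa4l2 among them), where 3.94% of all genes were. The direction of Ndufa4l2 was again fixed by the minimum for testing. Cyc1 had 0.30 there (adjusted p = 0.738).

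Genes that work with the members gave 0 calls by limma and by edgeR. The 13 chain subunits encoded by mitochondrial DNA had differences below 0 in 13 of 13, with a median of -0.17 and 0 at an unadjusted p under 0.05. That direction rests on wild-type library 4, without which 13 of 13 were above 0 with a median of 0.14, and in the pair of shared date 13 of 13 were also above 0, with a median of 0.49. By edgeR the median was -0.33. They took 2.04, 1.04, 1.24 and 3.08% of the recovered reads in wild-type libraries 1 to 4 and 1.48, 1.47, 1.37 and 1.63% in knockout libraries 1 to 4, the same order of wild-type libraries as the nuclear members. An example is mt-Co1, the catalytic subunit of complex IV, with 147433, 82948, 93596 and 246626 normalized counts in wild type and 106278, 111608, 103839 and 119612 in the knockout. All knockout libraries lay between wild-type libraries 3 and 1. Its log2 difference was -0.23 ± 0.29 (SE), with a limma adjusted p of 0.976.

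Assembly factors, which build the complexes without being part of them, also differed between wild-type libraries. The factors of complexes I to IV had the library order of the members, with library 2 lowest and library 4 highest, while those of complex V had library 3 lowest. For the 21 tested factors of complex IV, wild-type libraries 1 to 4 stood at median log2 deviations of 0.13, -0.53, -0.29 and 0.56 and knockout libraries 1 to 4 at -0.024, 0.032, -0.039 and 0.031. Wild-type libraries 2 and 4 stood at -0.28 and 0.29 for the 16 tested factors of complex I, -0.22 and 0.41 for the 6 of complex III and -0.26 and 0.40 for the 5 of complex V, closer to 0 than the subunits of the same complexes, as were those of complex IV. The 4 tested factors of complex II stood at -0.48 and 0.28, farther from 0 than its subunits. Limma differences were above 0 in 10 of 16 factors of complex I, 3 of 4 of complex II, 3 of 6 of complex III, 13 of 21 of complex IV and 2 of 5 of complex V, with 0 at an unadjusted p under 0.05. Cytochrome c (Cycs), the carrier between complexes III and IV, had 10124, 5871, 6053 and 12871 in wild type and 9543, 8805, 9722 and 8018 in the knockout. The inhibitor of ATP synthase, Atpif1, had 8407, 4472, 5989 and 13831 and 7301, 8185, 7702 and 7784. In both genes the knockout libraries lay between wild-type libraries 3 and 4. The supercomplex factor Higd2a had 5114, 3142, 3981 and 7325 and 4755, 5514, 5109 and 5108.

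Regulators of mitochondrial genes did not share that order. Over 16 tested genes their medians were 0.0068, 0.049, 0.10 and -0.16 in wild-type libraries 1 to 4 and -0.015, -0.036, 0.12 and 0.11 in knockout libraries 1 to 4, and 10 of 16 differences were above 0 with 0 at an unadjusted p under 0.05. Their transcripts ran from 1260 bases (Creb1) to 8357 (Gabpb2). All tested genes of 2000 to 4000 bases had medians of 0.10 in wild-type library 2 and -0.080 in library 4. Those over 4000 bases had 0.13 and -0.24. The part of length in the order of the regulators was not tested. Nrf1, whose site is shown above, had 1514, 2425, 1731 and 1273 normalized counts in wild type and 1233, 1773, 1139 and 1559.6 in the knockout. Its highest wild-type library was library 2 and its lowest library 4, the reverse of most members. Gabpa, which overlaps Atp5j on the opposite strand, had 528, 1173, 1357 and 838 and 1489, 1016, 1223 and 1325, and its genotypes overlapped (0.45 ± 0.28 SE, limma adjusted p = 0.927). Yy1 had 932, 751, 685 and 1052 and 574, 686, 599 and 705, overlapping as well (-0.40 ± 0.19 SE, limma adjusted p = 0.903). The coactivator gene Ppargc1a had 138, 82.2, 127 and 119.8 and 27.4, 112, 178 and 37.4, with knockout libraries 1 and 4 the lowest of the 8.

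Markers of cell types were set beside the library order of the members. Wild-type libraries 1 to 4 stood at -0.14, -0.088, 0.053 and -0.22 for hair cell markers, 0.24, 0.41, -0.13 and 0.19 for supporting cell markers, 0.11, -0.0093, -0.36 and -1.02 for mesenchyme and 0.10, 0.17, 0.049 and -0.18 for neurons and glia, as median log2 deviations. In none of these 4 lists was wild-type library 2 the lowest and library 4 the highest. For endothelial markers they stood at -0.011, -0.94, -0.059 and 0.36, which does follow that order, and the 7 of 9 measured markers summed 2659 to 4331 normalized counts in wild type and 3063 to 4457 in the knockout. The wild-type sums, 3353, 2915, 2659 and 4331, had library 3 lowest. Apart from Egfl7, no endothelial marker had more than 66.6 normalized counts in a wild-type library, and Tek and Flt1 had 0 in library 2. The median of this list thus rests on low counts. For macrophage markers they stood at 1.10, -1.54, -1.32 and -0.33. For outer hair cell markers they stood at 0.12, -0.77, -0.93 and 0.18, with libraries 2 and 3 low and library 4 highest. By gene, only Ocm, a transcript of 330 bases, had library 4 highest (21608, 11674, 7146 and 26417 normalized counts). Slc26a5 had 9536, 12302, 6778 and 10783, with library 2 highest, and Ikzf2 had 572, 190, 245 and 481, with library 1 highest. For 3 tested muscle markers they stood at 0.24, -0.44, 0.52 and 0.51. The muscle sums, 330, 179, 368 and 499.9, had library 2 lowest and library 4 highest. Most of each sum was Mylpf, a transcript of 766 bases, with 306, 149, 191 and 466. Each other measured muscle marker was highest in wild-type library 3 of the wild-type libraries, such as Tnnc2 with 24.3, 11.9, 45.2 and 12.8. Markers of dividing cells stood at 0.70, -0.018, -1.12 and -0.91, and the 1 tested red blood cell marker at 1.40, 1.20, 1.49 and -3.48. Whether cell makeup has a part in the order of the members was not tested.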

How the data were processed

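The libraries were prepared from sorted cells with SMART-Seq v4 and Nextera XT reagents (per the labels' protocols), which leave the strand unmarked. In the single deposited table of 25343 genes, the authors give a signal per gene and library, which is a normalized count: the values are reads over a size factor that is constant within a library. The same table holds the authors' log2 fold changes and p-values from DESeq2, per the file headers. Named without roles in the submitters' processing notes are mm10, Salmon 0.14.2, bcl2fastq 2.20 and DESeq2 1.26.0. Division by each column's smallest step gave whole reads for 100% of 202744 values, within 1e-06. 30 of the 85 members overlap another gene of the table.

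Genotypes came from the labels, and replicate numbers follow accession order. The main test was limma 3.58.1 (R 4.3.3) with an intensity trend on log2(normalized count + 1), two-sided, with Benjamini-Hochberg adjustment over the 18203 genes with at least 10 normalized counts in at least 4 libraries and a threshold of 0.05. Fold changes on this scale understate those of low genes, and 3 reads were worth 2.34 to 3.49 normalized counts (counting error only, since reads copied by PCR are not separate molecules). Alternatives were edgeR 4.0.16 and DESeq2 1.42.0 on recovered reads, other pseudocounts, filters and scalings, and left-out libraries. The main limma fit, edgeR and DESeq2 were tried on simulated counts, and the other alternatives were not. They called 60, 60 and 64 of 100 genes changed 2-fold and 98, 99 and 98 of 100 changed 4-fold. False calls numbered 4, 5 and 27. The simulation gave both genotypes the same dispersion, unlike the members, whose spread was larger in wild type. That dispersion was set and not estimated from these libraries, and no shift shared by many genes of a library was simulated. The simulated rates therefore may not hold for these libraries. In the real data limma did not call Ndp, with a log2 difference of -2.20 ± 0.56 (SE) and an adjusted p of 0.895. Transcript lengths are those of the shortest well-supported principal transcript in GENCODE M21, matched for all 85 members. Promoters are from RefSeq. Members and lists were chosen with earlier results of these data known. Members named with values were Cyc1, the smallest p per complex, catalytic members, alternative forms, X-linked members, members whose genotypes did not overlap, members under the minimum and the ends of the level order. Ndufb4, Ndufb9, Ndufs3, Atp5k and the members listed as exceptions were chosen after their values were seen. For 1 member, counted in all totals, no result of its own is reported here.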

Additional observations from a re-analysis of the deposited data

Results flagged for a closer look

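In 74 groups of 4 libraries tested over the named members, 2 had a library far from the other three, by a gap above Dixon's 95% critical value as a share of the group's range, and chance flags about 1 in 20 groups. Cox7b had 5953 normalized counts in knockout library 1, against 6859.6 to 6977.5 in the other knockout libraries. Uqcrc2 had 11589 in knockout library 2, against 10469 to 10629 in the other knockout libraries. The Cox7b value lies inside the wild-type range of that gene and the Uqcrc2 value above it.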

How the results depend on the processing

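The count of members called by limma was 0 under every alternative that gave a test. No paired analysis was possible because the replicate numbers follow accession order and only 1 title date occurs in both genotypes. Within that pair of libraries, a value with no test, the median log2 difference was 0.72 over all members, 0.74 for complex I, 0.33 for complex II, 0.87 for complex III, 0.81 for complex IV and 0.60 for complex V. With any 1 library left out these medians ranged over -0.093 to 0.37 for all members, -0.12 to 0.34 for complex I, 0.058 to 0.18 for complex II, -0.086 to 0.38 for complex III, -0.060 to 0.45 for complex IV and -0.069 to 0.34 for complex V. With both wild-type libraries 2 and 4 left out, chosen after seeing the data, the median over all members was 0.20. With Ndufa4 counted in complex IV, the medians of complexes I and IV were 0.083 and 0.14. DESeq2 called 34 genes of the whole table and limma 1.

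Members with a limma difference above 0 numbered 76 of 82, against 39 by edgeR and 80 with the length trend removed, so members beyond those listed here turned sign. Among the members named by the rule, none of those that turned sign was called. By edgeR they were Atp5g3 -0.050, Cox7b -0.054, Ndufa4 -0.014 and Ndufb11 -0.072, and by DESeq2 Atp5g3 -0.042, Cox7b -0.046, Ndufa4 -0.0058 and Ndufb11 -0.064. Without both libraries of the shared date they were Atp5g1 -0.023, Atp5g3 -0.092, Atp5s 0.0092, Cox4i1 -0.044, Cox6a1 -0.044, Cox6b1 -0.062, Cox6b2 -0.049, Cox7a1 -0.020, Cox7a2 -0.079, Cox7b -0.15, Ndufa4 -0.072, Ndufb11 -0.17, Uqcr11 -0.074 and Uqcrfs1 -0.0093. Within that pair they were Atp5g2 0.47, Cox4i2 0.49, Ndufs1 -0.20, Sdha -0.039 and Sdhb 0.39. Without wild-type libraries 2 and 4 they were Atp5s 0.13, Cox4i2 0.016 and Sdhb 0.10, and with the length trend removed Cox4i2 0.0033 and Sdhb 0.045. With any 1 library left out, differences that turned sign ranged over Atp5g1 -0.046 to 0.43, Atp5g2 -0.31 to 0.17, Atp5g3 -0.091 to 0.34, Atp5s -0.13 to 0.074, Cox4i1 -0.074 to 0.37, Cox4i2 -0.17 to 0.072, Cox5a -0.0039 to 0.43, Cox6a1 -0.072 to 0.53, Cox6b1 -0.047 to 0.46, Cox6b2 -0.032 to 0.71, Cox7a2 -0.10 to 0.42, Cox7b -0.14 to 0.42, Ndufa4 -0.10 to 0.46, Ndufb11 -0.18 to 0.31, Ndufv1 -0.019 to 0.22, Sdhb -0.12 to 0.17, Uqcr11 -0.086 to 0.57, Uqcrc1 -0.052 to 0.14 and Uqcrfs1 -0.074 to 0.15. The cause of these turns was not tested. Levels near 3 reads limit Cox8b, Cox8c, Ndufa4l2 and the second Atp5o gene.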
